A study of Mus musculus with 6 samples.

Results

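The type I interferon response was followed by 9 genes (of the 38355 genes listed in the count tables) in mouse cortex at 6 and at 16 months of age. They are Irf7, Isg15, Usp18, Ifit1, Ifit3, Oasl2, Bst2, Rtp4 and Ifi27. The 9 genes were selected on their counts at the 2 ages, with results of the same age comparison known, so that their difference between the ages is given as a description, and calls made on them by the fit across all genes are counted without reading anything from them. All 9 were found in the tables by their Ensembl identifiers, and all 9 passed the filter on low counts that left 17120 genes for testing.

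Polyadenylated RNA of whole cortical hemispheres was sequenced from wild-type C57BL/6 mice, an inbred laboratory strain, with 3 samples of 6 months (young) and 3 samples of 16 months (aged). Neither group carried a transgene or received a treatment according to the labels, each sample is a separate brain according to the study, and the labels do not give the sex of the mice; the study's account of its sorted cells says that RNA sequencing was done on males. The study asked which genes differ with age in the whole cortex, a mixture of neurons, glia and vessels. The housing protocol names 3 months as the younger age, whereas the sample titles, the age label and the study give 6 months, which was used here.

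Type I interferons are secreted proteins that cells make when sensors detect foreign or misplaced nucleic acids. They bind a receptor of paired chains on the same or neighbouring cells, whose kinases activate transcription factors, and these switch on a large set of interferon-stimulated genes through a short DNA element, the interferon-stimulated response element (ISRE). In the brain microglia, astrocytes and endothelial cells can all express such genes, and a low level is present without infection.

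Promoter sequence from RefSeq (GRCm38.p6), covering 250 bases before to 50 bases after the annotated start, was matched for 6 of the 9 genes, which were Isg15, Bst2, Ifit1, Ifit3, Irf7 and Oasl2. Entries for Ifi27, Usp18 and Rtp4 were not matched. The ISRE core was searched as GAAANNGAAA on either strand, which reads TTTCNNTTTC on the other strand. It was found in 4 of the 6 promoters, in 3.44% of all 32851 promoters of the table, and in 39.7% of the 73 promoters of other interferon-stimulated effector genes. The 60 bases around these matches are shown because several of the genes share this element, read 5′ to 3′ on the strand of the gene with the ISRE letters in capitals.
Isg15: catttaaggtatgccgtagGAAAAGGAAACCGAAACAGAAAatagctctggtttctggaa
Bst2: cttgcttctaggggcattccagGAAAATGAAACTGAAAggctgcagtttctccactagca
Ifit1: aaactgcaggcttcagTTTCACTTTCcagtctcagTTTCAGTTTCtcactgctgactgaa
Ifit3: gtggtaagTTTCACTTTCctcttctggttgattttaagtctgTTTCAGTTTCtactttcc

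These windows lie at chr4:156200856-156200915 (minus strand, Isg15), chr8:71537565-71537624 (minus strand, Bst2), chr19:34640769-34640828 (plus strand, Ifit1) and chr19:34583365-34583424 (plus strand, Ifit3) of GRCm38, all before the start of transcription. In Isg15, 3 overlapping matches began 78, 72 and 66 bases before the start, and in Bst2, 2 overlapping matches began 130 and 124 bases before it. In Ifit1 (104 and 85 bases) and Ifit3 (156 and 122 bases) the 2 matches were apart and read on the other strand. The element of the interferon gamma pathway, searched as TTCNNNGAA, occurred in 1 of the 6 promoters, that of Bst2, where it began 136 bases before the start and overlapped the first ISRE match; 8.3% of all promoters held it. The promoters of Irf7 and Oasl2 held neither run of letters, which says only that these letters are not in the 300 bases searched.

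Total counts on genes lay between 29797253 and 46519280 per sample. Levels are given as counts per 1000000 counts after TMM scaling (CPM), with scaling factors between 0.9882 and 1.009, and 3 counts, the floor of detection used here, correspond to 0.064 to 0.1 CPM. Aged replicates 1 and 2 stood apart, since across genes (not independent replicates) their departure from the average of the aged group rose with GC content in the one (r = 0.588) and fell with it in the other (r = −0.582), whereas r lay between −0.13 and 0.16 in the other 4 samples. All 14 markers of cortical neurons, astrocytes and oligodendrocytes passed the filter, with a summed level of 11700 to 11800 CPM at 6 months and 11600 to 12200 CPM at 16 months. Some markers of neighbouring tissue and blood were higher at 16 months. The summed level of 10 thalamic markers was 104 to 106 CPM in the young and 137 to 140 CPM in the aged samples, that of 8 markers of the dentate gyrus 264 to 268 and 295 to 306 CPM, that of 9 markers of the choroid plexus 20.9 to 21.9 and 29.4 to 33.4 CPM (12.2 to 12.4 and 12.7 to 14.7 CPM without Ttr, the 1 gene of that list called), and that of 5 genes of red blood cells 27.3 to 30.8 and 44.9 to 50.3 CPM. Of these lists 7, 3, 1 and 2 genes, respectively, were called higher (adjusted p under 0.05, edgeR quasi-likelihood test with Benjamini-Hochberg adjustment over all tested genes), against 0.783% of all tested genes. The part of these tissues in the levels below was not tested.

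Taken by their sum, the 9 interferon response genes were lower in the aged cortex. Their summed level was 59.6, 59.8 and 59.4 CPM in replicates 1, 2 and 3 at 6 months and 45.2, 42.6 and 42.7 CPM in replicates 1, 2 and 3 at 16 months. The means were 59.6 ± 0.171 CPM and 43.5 ± 1.5 CPM (SD, n = 3 each), a ratio of 1.37 between young and aged. The SD at 6 months is below what counting noise alone gives for sums of 1793 to 2795 counts, so it understates the uncertainty. Ifi27 alone made up 58.2% of the sum. Without it, the young samples lay at 25.4, 25.7 and 24.8 CPM and the aged samples at 18.1, 17.4 and 17.9 CPM, a ratio of 1.42. In both forms of the sum the 3 aged samples lay below the 3 young samples. In tissue of mixed cells, fewer cells of a type and less RNA per cell cannot be told apart.

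In each of the 9 genes, the highest aged sample was below the lowest young sample, an arrangement shown by 11.5% of all tested genes. The log2 fold changes (16 over 6 months) ranged from −0.83 in Oasl2 to −0.36 in Ifit3, with a median of −0.48, whereas the median over all tested genes was 0.001 and 2.9% of them lay at or below the median of the 9. In the edgeR quasi-likelihood test 2 of the 9, Ifi27 and Oasl2, were called lower at 16 months, where 0.888% of all tested genes were called lower; since the genes were selected on this comparison, nothing is read from these counts. The number called was 0 without replicate 1 or 2 of 6 months or replicate 3 of 16 months, 1 without replicate 3 of 6 months, and 5 without replicate 1 or replicate 2 of 16 months.

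**Figure D1:**
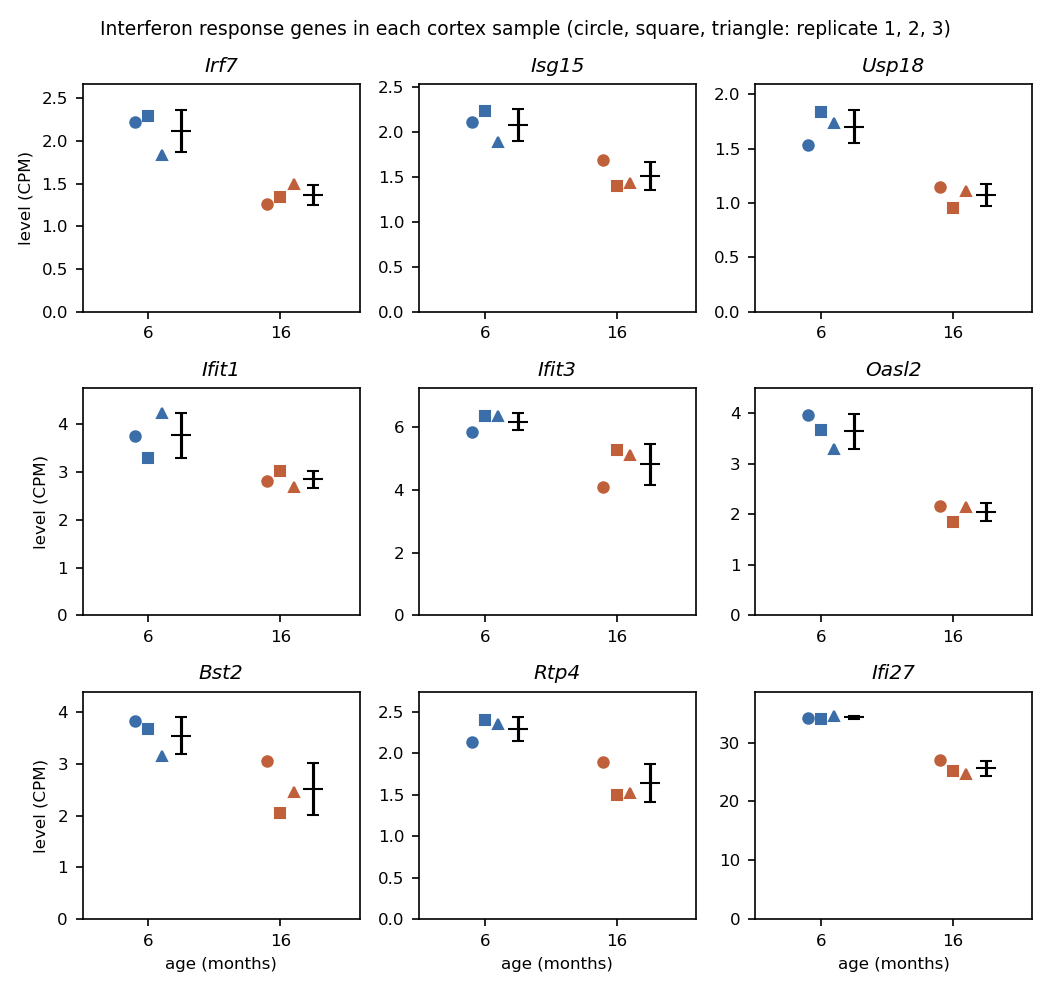
Level of each of the 9 genes (CPM, y axis from 0) in every sample at 6 and 16 months, with circles, squares and triangles for replicates 1, 2 and 3 and the mean ± SD (n = 3) in black beside them. In all 9 panels the 3 aged samples lie below the 3 young samples, with the widest gap in Oasl2 and the narrowest in Bst2.

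Irf7 (ENSMUSG00000025498, chromosome 7, 141262706 to 141266481, minus strand) encodes a transcription factor that is itself induced by interferon and amplifies the response. Its level was 2.22, 2.3 and 1.84 CPM in young replicates 1, 2 and 3 and 1.27, 1.34 and 1.49 CPM in aged replicates 1, 2 and 3. The highest aged sample stood at 81.4% of the lowest young sample. On the log2 scale Irf7 differed by −0.62 ± 0.15 (SE), from a mean of 2.12 ± 0.248 to one of 1.37 ± 0.115 CPM (SD, n = 3). The exons of Irf7 overlap those of Phrf1 on the other strand over 1.2% of their length.

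Isg15 and Usp18 form an opposing pair. Isg15 (ENSMUSG00000035692, chromosome 4, 156199424 to 156200818, minus strand) encodes a small ubiquitin-like protein that is attached to other proteins during the response, and its promoter holds the 3 overlapping ISRE matches shown above. It was measured at 2.11, 2.23 and 1.88 CPM in the young and at 1.69, 1.4 and 1.44 CPM in the aged samples, in the order of replicates 1 to 3. The gap was modest, with the highest aged sample at 89.7% of the lowest young sample, and the log2 fold change was −0.45 ± 0.14 (SE).

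Usp18 (ENSMUSG00000030107, chromosome 6, 121245906 to 121270917, plus strand) encodes the protease that removes ISG15 from its targets and also damps signalling at the interferon receptor. It was among the rarest of the 9 transcripts, with 72, 55 and 73 counts at 6 months and 38, 30 and 38 counts at 16 months. These counts correspond to 1.54, 1.83 and 1.74 CPM in the young and 1.15, 0.957 and 1.11 CPM in the aged samples. The ages were well separated, with the highest aged sample at 74.6% of the lowest young sample. The log2 fold change of −0.65 ± 0.16 (SE) was the second largest difference of the group. Its exons overlap Gm44148 on the other strand over 4.4% of their length.

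The IFIT proteins bind foreign RNA and block its translation. Ifit1 (ENSMUSG00000034459, chromosome 19, 34640871 to 34650009, plus strand) stood at 3.75, 3.3 and 4.24 CPM at 6 months and at 2.81, 3.03 and 2.69 CPM at 16 months. Young replicate 2 was close to aged replicate 2, at a ratio of 91.8%, while the other young samples stood further above. The log2 fold change of Ifit1 was −0.42 ± 0.12 (SE).

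Ifit3 (ENSMUSG00000074896, chromosome 19, 34583531 to 34588731, plus strand), the partner of IFIT1 in the same complex, was measured at 5.84, 6.33 and 6.34 CPM in the young and 4.07, 5.26 and 5.09 CPM in the aged samples. Here aged replicate 1 was the lowest of the 6 samples, and the log2 fold change of −0.36 ± 0.11 (SE) was the smallest of the group. Without aged replicate 1 it was −0.25. The value is uncertain because 97.4% of the Ifit3 transcript has a near-identical copy (at least 97% identity over 100 bases or more) in the neighbouring gene Ifit3b, and HTSeq, the counter named by the study, counts reads that align equally well to both for neither. Ifit3b itself was measured at 3.84, 4.43 and 3.58 CPM in the young and 2.99, 3.54 and 3.34 CPM in the aged samples. Its aged samples also lay below the young ones, but it did not pass the test (log2 fold change −0.25 ± 0.12 SE, adjusted p = 0.3, edgeR with Benjamini-Hochberg adjustment). Ifit3b was named after its values were seen.

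Oasl2 (ENSMUSG00000029561, chromosome 5, 114896936 to 114912234, plus strand), a relative of the oligoadenylate synthetases that activate the degradation of viral RNA, differed most. Its level was 3.97, 3.67 and 3.29 CPM at 6 months and 2.17, 1.85 and 2.14 CPM at 16 months, from 186, 110 and 138 counts and 72, 58 and 73 counts. The highest aged sample reached 66% of the lowest young sample, the widest gap among the 9 genes. The means were 3.64 ± 0.34 and 2.05 ± 0.177 CPM (SD, n = 3), a 1.77-fold difference, with a log2 fold change of −0.83 ± 0.12 (SE).

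Bst2 (ENSMUSG00000046718, chromosome 8, 71534255 to 71537456, minus strand) encodes tetherin, a membrane protein that holds budding viruses at the cell surface. The young samples lay at 3.82, 3.67 and 3.15 CPM and the aged samples at 3.05, 2.04 and 2.46 CPM. The ages nearly met, with aged replicate 1 at 96.8% of young replicate 3, and the spread between aged samples was wide. Bst2 had a log2 fold change of −0.49 ± 0.15 (SE). It was −0.65 without aged replicate 1 and −0.36 without aged replicate 2, the 2 samples that deviated with GC content.

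Rtp4 (ENSMUSG00000033355, chromosome 16, 23520291 to 23614222, plus strand) encodes a transporter protein that brings receptors to the cell surface. It was measured at 2.13, 2.4 and 2.36 CPM in the young and at 1.9, 1.5 and 1.52 CPM in the aged samples, where replicate 1 stood nearest to the young samples. This gave a log2 fold change of −0.48 ± 0.14 (SE). Rtp4 shares 13.9% of its exon length with Gm45338 on the same strand.

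Ifi27 (ENSMUSG00000064215, chromosome 12, 103434211 to 103440239, plus strand), a small membrane protein of mitochondria and the nuclear envelope, was by far the most abundant of the 9. It was counted 1605, 1021 and 1451 times at 6 months and 899, 790 and 844 times at 16 months, equal to 34.2, 34 and 34.6 CPM and to 27.1, 25.2 and 24.7 CPM. The young samples were almost identical, closer than counting noise alone usually gives at such counts. The highest aged sample stood at 79.7% of the lowest young sample. The log2 fold change was −0.42 ± 0.058 (SE), the smallest error of the group.

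Set on a scale that allows a comparison between genes, CPM per kilobase of exon, the 9 genes spanned a wide range at 6 months, from 23.4 ± 0.191 for Ifi27 to 0.561 ± 0.0657 for Irf7 (SD, n = 3). Bst2 (3.92 ± 0.39), Ifit3 (3.54 ± 0.163), Isg15 (2.75 ± 0.235), Ifit1 (1.42 ± 0.178), Rtp4 (1.08 ± 0.0675), Usp18 (0.61 ± 0.0545) and Oasl2 (0.571 ± 0.0533) lay between. Samples of Bst2 and Ifit3 overlapped, as did those of Usp18, Oasl2 and Irf7, whereas the other neighbours in this order were apart. At 16 months the levels per kilobase ran from 17.5 ± 0.868 for Ifi27 to 0.322 ± 0.0277 for Oasl2, and the last place passed from Irf7 (0.362 ± 0.0306) to Oasl2, whose samples overlapped. By this measure Ifi27 was higher than 85.7% of all tested genes, and the other 8 genes were higher than 14.2% to 44.5% of them.

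An index of the spread of the counts between same-age samples, at 1 for counting noise alone, lay between 0.424 (Usp18) and 2.38 (Bst2) and was above 1 in 4 of the 9 genes. No young sample was always the highest, since replicates 1, 2 and 3 were highest in 2, 4 and 3 of the 9 genes. At 16 months replicate 1 was highest in 6 genes and replicate 2 lowest in 5.

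**Figure D2:**
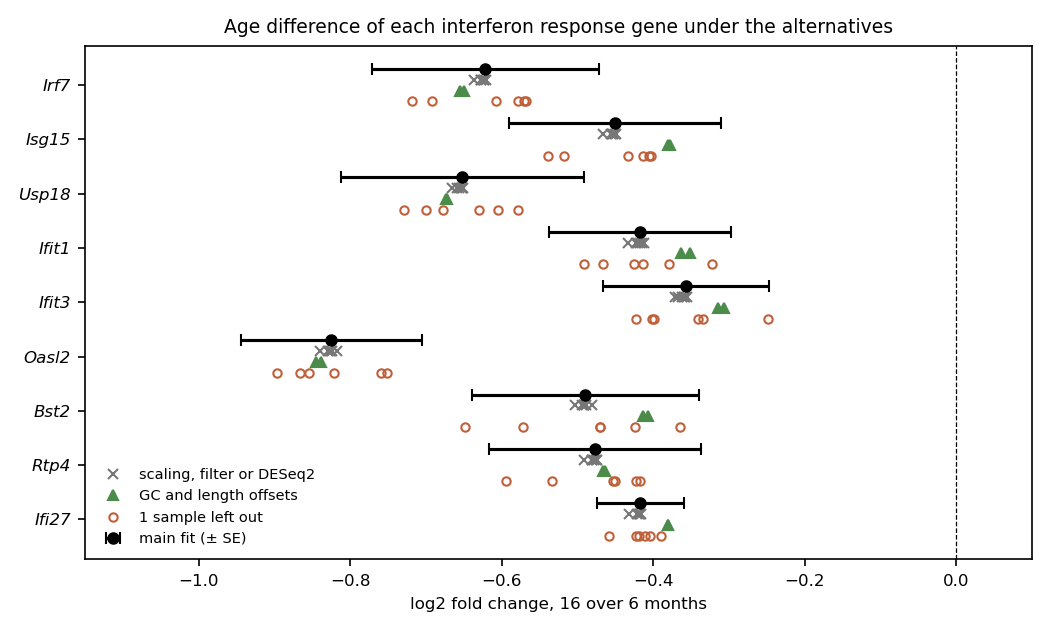
Log2 fold change (16 over 6 months, x axis) of each of the 9 genes in the reported fit (black, ± SE), under other scalings, filters, DESeq2 or the replicate block (grey crosses), with offsets for GC content and length (green triangles) and with 1 sample left out (open circles). All values lie below 0, and those of Bst2 spread most when an aged sample was left out.

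The direction of the 9 genes was the same under all settings tried. With 1 sample left out, or with other scalings, filters or DESeq2, this was nearly fixed in advance. The genes were selected on this comparison, and the ages lay apart in all 9. Under 14 other settings every gene kept a negative log2 fold change, from −0.9 to −0.75 for Oasl2 at the one end and from −0.42 to −0.25 for Ifit3 at the other, and the median of the 9 lay between −0.57 and −0.41.

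The other genes of the pathway were taken from lists of 144 genes, of which 138 were matched in the tables and 106 passed the filter. The lists, too, were chosen with earlier results of these data known. Their shares, here and in the paragraphs on each role, are therefore given as a description. Of these 106 genes, 3 were called lower at 16 months (2.83%, against 0.888% of all tested genes) and 0 were called higher (edgeR quasi-likelihood test). At an unadjusted p under 0.05 in the same test, 29 were lower and 4 higher. The share of all tested genes at that threshold is not given here. Nothing is therefore read from the unadjusted counts of this or any other list. DESeq2 called 4 lower and 0 higher. The median log2 fold change was −0.12, with 76 negative and 30 positive values. In 32 genes (30.2%, against 11.5% of all tested genes) the aged samples lay below the young ones. In 7 (6.6%, against 12.2% of all tested genes) they lay above. The microglial, endothelial and fibroblast markers described below held shares of 26.7%, 33.3% and 37.5% below and 13.3%, 8.33% and 12.5% above. A raised share below is therefore not particular to the pathway lists. The calls changed with single samples, as 0 pathway genes were called lower without replicate 1, 2 or 3 of 6 months or without replicate 3 of 16 months, where 20 to 29 were lower at an unadjusted p under 0.05, while 6 were called lower without replicate 1 and 18 without replicate 2 of 16 months.

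The ligands were not measurable. None of the 16 interferon genes matched in the tables passed the filter, 13 of them had 0 counts in every sample, among them Ifnb1, and the remaining 3 (Ifna2, Ifne and Ifnk) had at most 2 counts in any sample. A count of 0 allows up to 0.064 to 0.1 CPM at these depths.

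The receptor and its signalling chain showed no called difference (0 of 7 genes in edgeR and 0 of 7 in DESeq2; at an unadjusted p under 0.05, 1 gene was higher and 0 were lower in either test), with a median log2 fold change of −0.02. Ifnar1, a receptor chain, was measured at 49.6, 47.6 and 45 CPM in the young and 51.9, 46.1 and 47.6 CPM in the aged samples. For the kinase Jak1, the values were 209, 212 and 212 CPM and 226, 239 and 233 CPM, with a log2 fold change of 0.14 ± 0.048 (SE, adjusted p = 0.179, edgeR with Benjamini-Hochberg adjustment). Its aged samples lay above the young ones, the opposite arrangement to that of the 9 genes, and it was called higher without aged replicate 1 (0.16). Stat2 (−0.02 ± 0.056, SE) and Irf9 (−0.03 ± 0.07, SE), which was named after its values were seen, encode factors of the complex that binds the ISRE, and the samples of both ages overlapped for both.

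Sensors, adaptors and the kinases that induce interferon were likewise without a call (0 of 18 genes in edgeR and 0 of 19 in DESeq2; at an unadjusted p under 0.05, edgeR gave 2 lower and 3 higher). Their median log2 fold change was −0.01, with 9 negative and 9 positive values. The aged samples lay below the young ones in 2 of the 18 (11.1%, against 11.5% of all tested genes). They lay above in 5 (27.8%, against 12.2%). The kinase Tbk1 had a log2 fold change of 0.004 ± 0.055 (SE), the factor Irf3 one of −0.03 ± 0.066 and the adaptor Traf3 one of 0.19 ± 0.063 (adjusted p = 0.179, edgeR with Benjamini-Hochberg adjustment). Traf3 was the one of these 3 whose aged samples (98.4, 85.7 and 91.3 CPM) lay above the young samples (83.9, 77.5 and 80.8 CPM), and it was called higher without aged replicate 2 (0.23).

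The other interferon-stimulated effectors held 2 of the 3 pathway genes called lower (2 of 56, or 3.57%, against 0.888% of all tested genes; DESeq2 called 3). Of 56 tested effectors 44 had a negative and 12 a positive log2 fold change, with a median of −0.21, and in 22 of them (39.3%, against 11.5% of all tested genes) the aged samples lay below the young ones while in 0 (against 12.2%) they lay above. Ddx60, a helicase that assists RNA sensing, was measured at 1.88, 1.97 and 1.62 CPM in the young and 0.815, 1.05 and 0.732 CPM in the aged samples. All aged samples lay far below the young ones, with 59 to 88 counts at 6 months and 25 to 33 counts at 16 months. The log2 fold change was −1.07 ± 0.18 (SE, adjusted p = 0.0201, edgeR with Benjamini-Hochberg adjustment).

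Zc3hav1, which encodes an antiviral protein that marks viral RNA for decay, stood at 8.77, 8.7 and 9.82 CPM in the young and at 6.76, 6.64 and 6.65 CPM in the aged samples. Its aged samples were tightly grouped, and the log2 fold change was −0.45 ± 0.08 (SE, adjusted p = 0.0255, edgeR with Benjamini-Hochberg adjustment). Over the 14 other settings the log2 fold change ranged from −1.23 to −0.96 for Ddx60 and from −0.48 to −0.39 for Zc3hav1, and both calls were lost without any 1 of the 6-month replicates and without aged replicate 3. The most abundant effectors per kilobase did not share this direction. Ly6e had a log2 fold change of 0.008 ± 0.064, the RNA-editing enzyme Adar one of 0.08 ± 0.063 and Shisa5 one of 0.06 ± 0.072 (SE), and the samples of both ages overlapped for all 3. Adar shares 21.7% of its transcript with its neighbour Chrnb2.

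The enzymes that attach ISG15 to proteins were Uba7 (log2 fold change −0.30 ± 0.12), Ube2l6 (−0.04 ± 0.12) and Herc6 (−0.27 ± 0.12, SE). For all 3 the samples of both ages overlapped, and 0 of 3 passed in edgeR or in DESeq2 (at an unadjusted p under 0.05, 1 was lower and 0 were higher in each test). Herc6, the ligase, ranged from 32.6 to 38.2 CPM at 6 months and from 23.7 to 34.7 CPM at 16 months, the lowest being aged replicate 1. It was called lower without aged replicate 2 (−0.39) and under some of the other settings, and without aged replicate 1 it stood at −0.13. Herc6 shares 26.7% of its transcript with Gm45193.

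Of 7 inhibitors of interferon signalling, 0 were called in edgeR or DESeq2, and 0 passed an unadjusted p under 0.05 in either test. Their median log2 fold change was −0.03, with values of −0.001 ± 0.066 for Pias1, −0.06 ± 0.11 for Pias4 and −0.03 ± 0.1 for Ptpn6 (SE). Usp18, which acts as an inhibitor too, was the one gene of this role among the 9.

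Genes of the neighbouring interferon gamma pathway included the remaining call. Gbp2, a guanylate-binding protein that attacks the vacuoles of intracellular pathogens, was measured at 4.22, 4.23 and 4.82 CPM in the young and 2.84, 3.13 and 2.64 CPM in the aged samples. The ages lay well apart, with a log2 fold change of −0.63 ± 0.11 (SE, adjusted p = 0.0231, edgeR with Benjamini-Hochberg adjustment). Over the 14 other settings it ranged from −0.70 to −0.56, and the call was lost without the same 4 samples as those of Ddx60 and Zc3hav1. Over the 15 tested genes of this list the median was −0.27, and the aged samples lay below the young ones in 7 (46.7%, against 11.5% of all tested genes) and above in 1 (6.67%, against 12.2%). Ifng, the ligand, had 0 counts in every sample. The receptor genes Ifngr1 (0.14 ± 0.064) and Ifngr2 (0.02 ± 0.057, SE) were not called, and neither was the GTPase Igtp, at 6.55, 5.97 and 5.86 CPM in the young and 4.16, 4.72 and 5.15 CPM in the aged samples (log2 fold change −0.39 ± 0.1 SE, adjusted p = 0.091, edgeR with Benjamini-Hochberg adjustment). Igtp was called lower without aged replicate 2 (−0.40), with no filter on low counts and with the offsets for GC content and length.

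**Figure D3:**
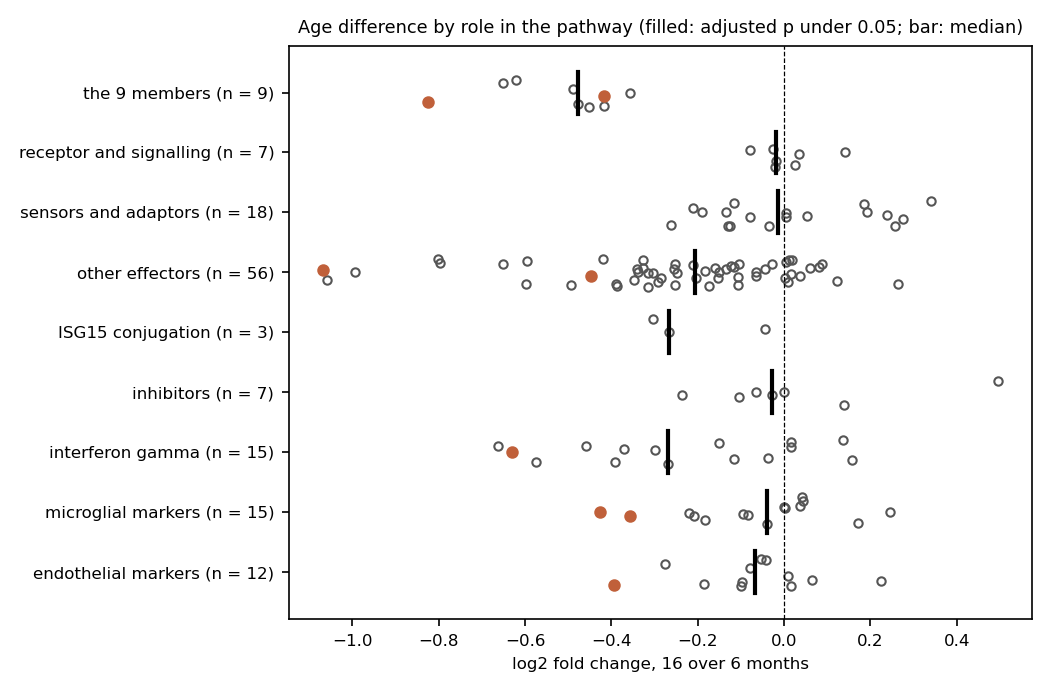
Log2 fold change (16 over 6 months, x axis) of single genes, 1 circle each, by role in the pathway and for microglial and endothelial markers, with vertical bars at the median and filled circles for adjusted p under 0.05. The 9 members all lie below 0 with a median of −0.48, the other effectors and the interferon gamma list have medians of −0.21 and −0.27, and the receptor, sensor and inhibitor lists have medians between −0.03 and −0.01.

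Cell types that can express interferon response genes were followed by their markers. The summed level of 15 microglial markers was 546 to 557 CPM at 6 months and 547 to 564 CPM at 16 months. Of the 15, 2 were called lower (13.3%, against 0.888% of all tested genes), Tyrobp (log2 fold change −0.36 ± 0.067) and Aif1 (−0.43 ± 0.087, SE). In edgeR 0 were called higher, DESeq2 called 1 higher, and the median was −0.04. At an unadjusted p under 0.05 in edgeR, 3 were lower and 2 higher. The aged samples lay below the young ones in 4 (26.7%, against 11.5% of all tested genes) and above in 2 (13.3%, against 12.2%). The summed level of 12 endothelial markers was 296 CPM in all young samples (to 3 digits) and 293 to 301 CPM at 16 months. Of the 12, 1 was called lower (8.33%, against 0.888% of all tested genes), Kdr (−0.39 ± 0.068, SE). In edgeR and in DESeq2 0 were called higher, and the median was −0.07. At an unadjusted p under 0.05 in edgeR, 3 were lower and 1 higher. The aged samples lay below the young ones in 4 (33.3%, against 11.5% of all tested genes) and above in 1 (8.33%, against 12.2%). Taken relative to the summed microglial or endothelial markers, a setting chosen after seeing the data, the median of the 9 genes was −0.48 in both cases.

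**Figure D4:**
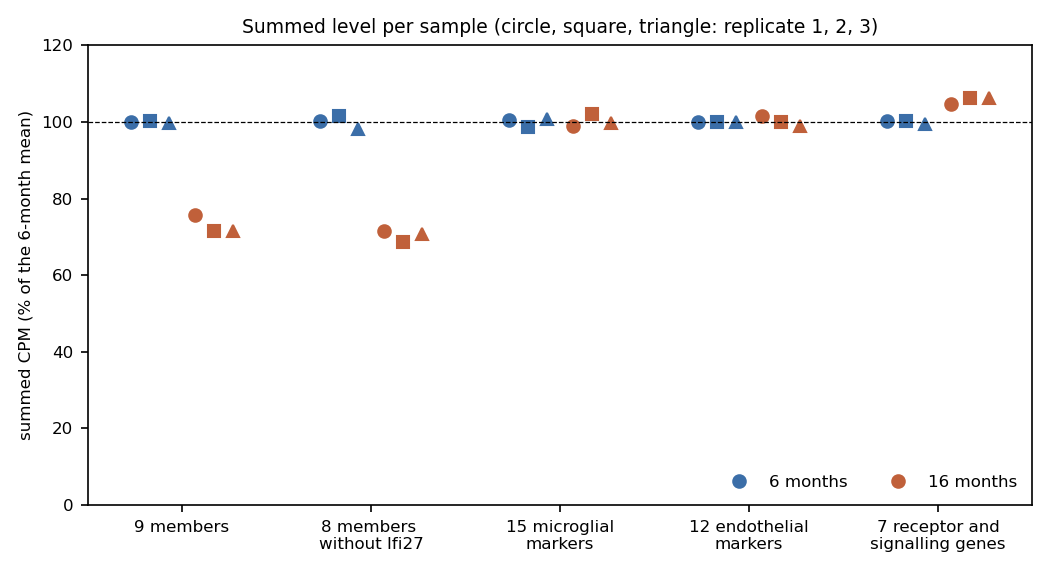
Summed level per sample as a percentage of the mean of the 6-month samples (y axis from 0), for the 9 genes, the 8 genes without Ifi27, the microglial and endothelial markers and the 7 receptor and signalling genes, with circles, squares and triangles for replicates 1, 2 and 3. The aged samples of the 9 genes lie between 71.5% and 75.9%, those of the microglial markers between 99% and 102%, and those of the receptor and signalling genes between 105% and 106%. This last sum (366 to 369 CPM at 6 months, 385 to 391 CPM at 16 months) is mostly Jak1, with means of 211 and 233 CPM. The median log2 fold change of the 7 genes is −0.02.

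Fibroblasts of the meninges and vessels were followed by 8 markers. They summed to 156 to 161 CPM at 6 months and 145 to 149 CPM at 16 months. Of the 8, 1 was called lower (12.5%, against 0.888% of all tested genes), Igf2 (log2 fold change −0.46 ± 0.052, SE). The median was −0.24. The aged samples lay below the young ones in 3 (37.5%, against 11.5% of all tested genes) and above in 1 (12.5%, against 12.2%). In edgeR 0 were called higher (3 were lower and 1 was higher at an unadjusted p under 0.05), and DESeq2 called 2 lower and 1 higher. The aged samples of Pdgfra, also a marker of oligodendrocyte precursors, lay above the young ones (log2 fold change 0.22, not called). Their part in the levels of the 9 genes was not tested. Markers of infiltrating blood cells were low. The 10 markers of T and B lymphocytes summed to 6.66 to 7.8 and 6.95 to 8.02 CPM, nearly all of it Cd4, without which they summed to 0.596 to 0.9 and 0.392 to 0.586 CPM, with Cd3e, Cd3d, Cd3g and Ms4a1 among those at or under 3 counts in every sample, and the 8 markers of monocytes and neutrophils to 0.739 to 0.896 and 0.849 to 1.15 CPM, with Ly6c2 and Retnlg at or under 3 counts in every sample.

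Among the 10 genes whose levels ran most closely with the mean of the 9 over the 6 samples were Enpp1 (Pearson r = 0.9991), the gene ENSMUSG00000044341 (0.9974), Spag5 (0.9973), Ndufb9 (0.9964), C4b (0.9962), Rps9 (0.9958), S100a16 (0.9955), Ccn2 (0.993) and Fermt1 (0.9929). These values describe 6 samples that fall into 2 ages and carry no test, since any gene that separates the ages without much spread scores highly. None of the 10 was on the pathway lists. C4b, a complement component, differed most among them, from 48.9 ± 2.21 CPM at 6 months to 21.3 ± 1.88 CPM at 16 months (SD, n = 3). The pathway gene nearest to the 9 was the effector Ifi27l2a (r = 0.987), at rank 31 of the tested genes that are not members.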

How the data were processed

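The authors sequenced polyadenylated RNA (TruSeq, paired-end) of 6 cortex samples. According to the study, reads were trimmed with fastq-mcf, aligned to mm10 with STAR and counted per Ensembl gene with HTSeq, whereas the submitters' processing notes name CASAVA 1.8.2, STAR 2.3.0e and featureCounts 1.5.0-p1. The Ensembl release and strand setting are not given in the sources used here. The deposited values are raw counts per gene without normalization, 1 table per sample, and summary lines (reads on no gene were 22% to 27.7%) were left out. Of 38355 identifiers 36602 were matched to GENCODE M21 (GRCm38). Counts were tested with edgeR 4.0.16 in R 4.3.3 (TMM, filterByExpr, quasi-likelihood, Benjamini-Hochberg at 0.05, all 6 samples, age only), with a prior count of 2 in log2 values. DESeq2 1.42.0 was an alternative. Copies were searched with blastn 2.17.0, and figures drawn with matplotlib 3.10.9. Tests were checked on simulated counts.

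The members, the gene lists and the tests were chosen with earlier results of these data known. Named genes are the members, pathway genes that pass the test, up to 3 further genes per list with the highest CPM per kilobase, and the 10 genes most alike over the samples. The called markers (Tyrobp, Aif1, Kdr, Igf2 and Ttr), Pdgfra, Cd4, Ifit3b, Irf9, Ifi27l2a and Tlr7 were named after their values were seen. Some genes that these rules cover are not reported here. Depth was 29797253 to 46519280 counts. Floors cover counting error only. The alternatives were other scalings, filters, DESeq2, the replicate block, offsets for GC content and length (medians over 20 bins), and each sample left out.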

Additional observations from a re-analysis of the deposited data

How the results depend on the processing

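The median log2 fold change of the 9 genes (−0.48) moved by less than the spread between replicates under all 14 planned settings and the 2 added after seeing the data, and so did each of the 9 single values (144 of 144). For the fits without 1 sample this was nearly fixed in advance. Leaving out 1 of 3 samples can hardly move a group mean by that much. The other size factors and the 2 added settings shifted all 9 genes nearly alike, so little is read from this. With 1 sample left out, the median lay between −0.57 and −0.42. The counts of calls changed with the settings. All tested genes called numbered 286, and 648 with no filter on low counts, 470 in DESeq2, 783 with the replicate block, 2426 with offsets for GC content and length, and 3320 with the block and the offsets together. With 1 sample left out they ranged from 48 to 2211. Pathway genes called lower numbered 3, and 10 with no filter, 9 with the replicate block, 18 with the offsets and 22 with block and offsets, with 0 to 18 when 1 sample was left out. Pathway genes called higher numbered 0, and 3 with the offsets (Jak1, Tlr7 and Traf3) with or without the block, with 0 to 1 when 1 sample was left out. The 3 genes Ddx60, Gbp2 and Zc3hav1 were among the calls of all settings except those without a 6-month replicate or without replicate 3 of 16 months. The cause of these shifts was not tested. Whether the replicate numbers pair the samples was not settled. The deviations of same-numbered samples correlated with r = 0.18, 0.096 and 0.035 across genes, and those of other pairs with r between −0.133 and 0.038. Each young sample correlated best with the aged sample of its number, but aged replicate 3 correlated best with young replicate 2 (r = 0.038). The number of the 9 genes called was 2, and 5 with no filter, 2 with the replicate block, 7 with the offsets and 7 with block and offsets. Herc6 was called lower with the block, with the offsets and with both, and Igtp with no filter, with the offsets and with block and offsets. With 3 samples per age and 30 to 274 counts for 8 of the 9 genes, depth and sample number limit the precision of single genes.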
